A study of Homo sapiens with 4 samples.

Results

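The transcripts of the hypoxia-inducible factor (HIF) subunits and of the enzymes that sense oxygen were compared between HCT116 monolayers and HCT116 multicellular spheroids (MCS). The 10 genes were fixed by name: the HIF subunits HIF1A, EPAS1, ARNT and ARNT2, the hydroxylases EGLN1, EGLN2, EGLN3 and HIF1AN, the ubiquitin ligase subunit VHL and the HIF inhibitor CITED2. They were represented by 27 of 54613 probe sets, taken as those whose only gene symbol in the platform annotation was one of the 10. HCT116 is an established human colon carcinoma line, and a spheroid is a three-dimensional aggregate whose inner cells are poorly supplied with oxygen and nutrients. The line was grown without treatment as 2 monolayers and as 2 spheroid cultures, each hybridized to its own one-colour oligonucleotide array. The cultures were described in the study's methods as independent. Each array measured RNA of whole cultures, so a change in all cells and a change in the rim or the core alone cannot be told apart, nor can fewer cells of a kind and less RNA per cell.

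HIF is a dimer of an oxygen-regulated alpha subunit and a stable beta subunit that activates genes of glycolysis, angiogenesis and survival when oxygen is low. With oxygen present, prolyl hydroxylases of the EGLN family, also called PHD enzymes, modify the alpha subunit, which VHL then binds and marks for destruction. A further hydroxylase, HIF1AN (factor inhibiting HIF), blocks binding of the coactivators p300 and CBP. EGLN1, EGLN3 and CITED2 are themselves known as HIF-responsive genes, and so form feedback loops. The control of the alpha subunits acts mainly on the protein, which arrays do not measure.

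Of the 27 probe sets, 14 from 8 genes had a mean signal over 300 units and were tested. Of these, 9 probe sets from 5 genes (EGLN3, CITED2, EPAS1, ARNT and EGLN1) were higher in spheroids, 0 were lower and 5 were not called (limma, Benjamini-Hochberg adjusted p under 0.05). At an unadjusted p under 0.05 the counts were also 9 and 0. Over all 15911 tested probe sets, 33.4% were called, 16.8% higher and 16.6% lower. Both spheroid arrays lay above both monolayer arrays for 11 of the 14 and below for 0, against 33.4% and 34.5% of all tested probe sets (67.9% in either direction). Over all 27, tested or not, 14 lay above and 2 below without overlap, against 27.9% and 19.7% of all probe sets. In 3 of the 14, both of EGLN3 and 1 of ARNT, the mean passed 300 units through the spheroid arrays alone, so nothing is read from the share of tested members that were called. With no filter, 7 of the 27 were called higher and 0 lower, against 3.53% and 2.89% of all 54613 probe sets (6.42% in either direction). Differences are given as spheroid minus monolayer on the log2(signal + 32) scale, ± standard error, n = 2 arrays per group. The constant understates changes of dim probe sets.

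**Figure D1:**
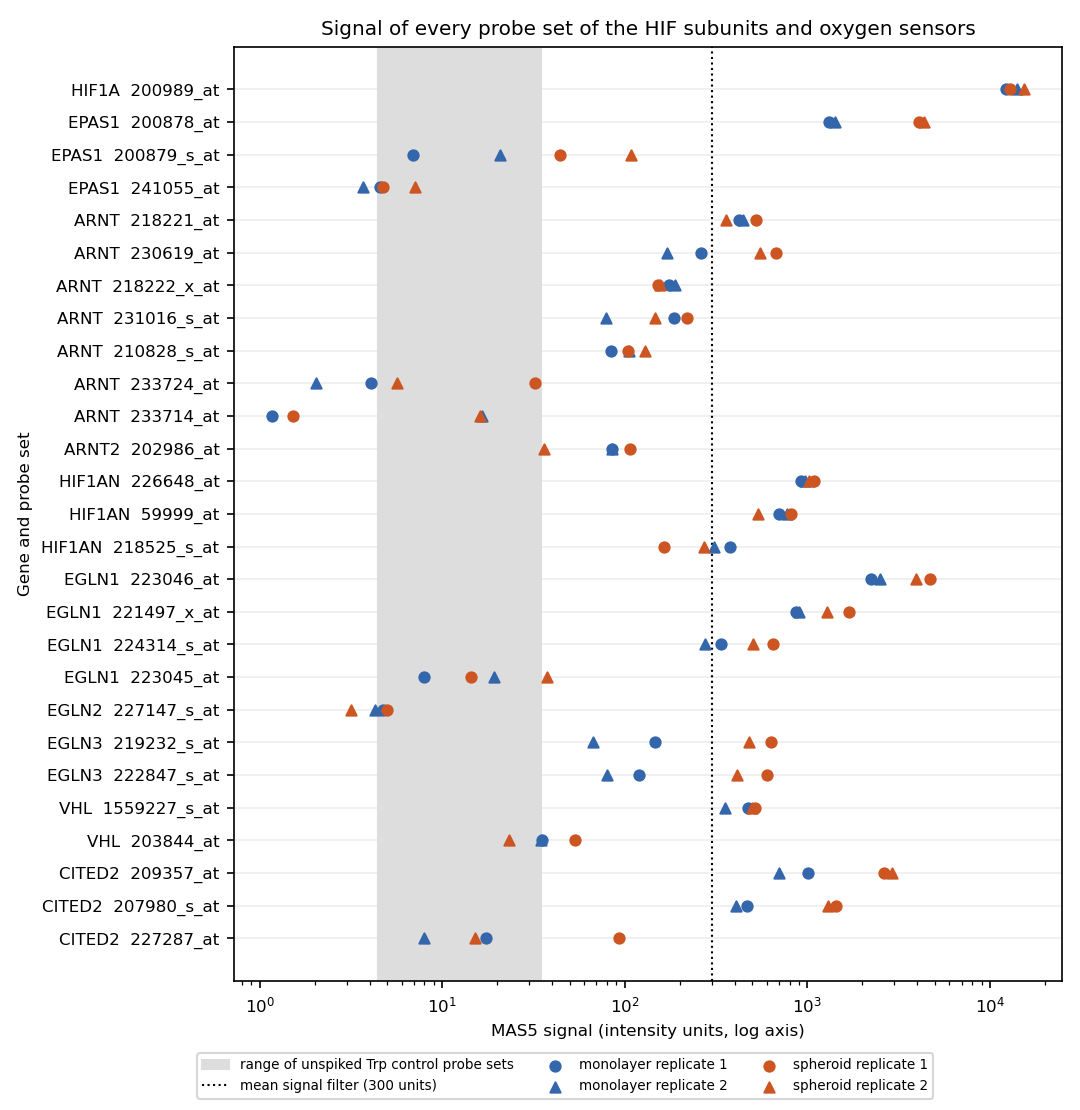
MAS5 signal (x, log axis, intensity units) of all 27 probe sets of the 10 genes (y), 1 point per array, blue for monolayers and orange for spheroids, circles for replicate 1 and triangles for replicate 2. The dotted line is the mean filter of 300 units and the grey band the range of unspiked Trp control probe sets (4.47 to 34.97); orange lies clear to the right of blue for EGLN3, CITED2 209357_at and 207980_s_at, EPAS1 200878_at and ARNT 230619_at, whereas the colours mix for HIF1A.

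The directions rest on the scaling of the arrays. As deposited, all arrays had a trimmed mean of 500.1, which removes any difference in total mRNA. The 24 Bacillus control probe sets were 1.80-fold brighter in spheroids (median), and the 18 hybridization controls 1.10-fold. Scaling to the Bacillus controls moved the median of all tested probe sets from -0.01 to -0.73 and the median standard error from 0.21 to 0.43, and gave 354 higher and 4957 lower probe sets in place of 2674 and 2643. Of the 9 members called, only the 2 EGLN3 probe sets were then called, and both had passed the filter through the spheroid arrays alone. Relative to that median, however, the members' differences were almost as before, and each is given as a difference from the average transcript. For ACTB, the signal at the 3' end exceeded that at the 5' end 2.64-fold and 2.34-fold on the monolayer arrays. On the spheroid arrays it did so 2.82-fold and 3.0-fold. For GAPDH the ratio went the other way, from 1.07 and 1.02 on the monolayer arrays to 0.93 and 0.92 on the spheroid arrays. The part of these ratios in the results was not tested. Signals of 7 of 8 epithelial marker genes (EPCAM, CDH1, KRT8, KRT18, KRT19, CLDN4 and CLDN7) were over 300 units on all arrays, and VIL1 was at 44.84 to 132.7. Of the epithelial genes, CDH1, KRT19, CLDN4 and CLDN7 were called higher in spheroids. EPCAM (0.016), KRT8 (-0.49) and KRT18 (-0.11) were not called. None of the 4 leukocyte and 4 endothelial markers with a probe set passed the filter (summed signals of 64.31 to 204.8 and 155.6 to 328.4). Of 6 stromal markers COL1A1 alone did (1.64 ± 0.20), and the summed stromal signal went from 1098 and 802.7 (monolayers) to 2413 and 2776 (spheroids), whereas COL1A2, COL3A1, DCN, LUM and PDGFRB were at 1.235 to 78.22. The part of these markers in the members' results was not tested.

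**Figure D2:**
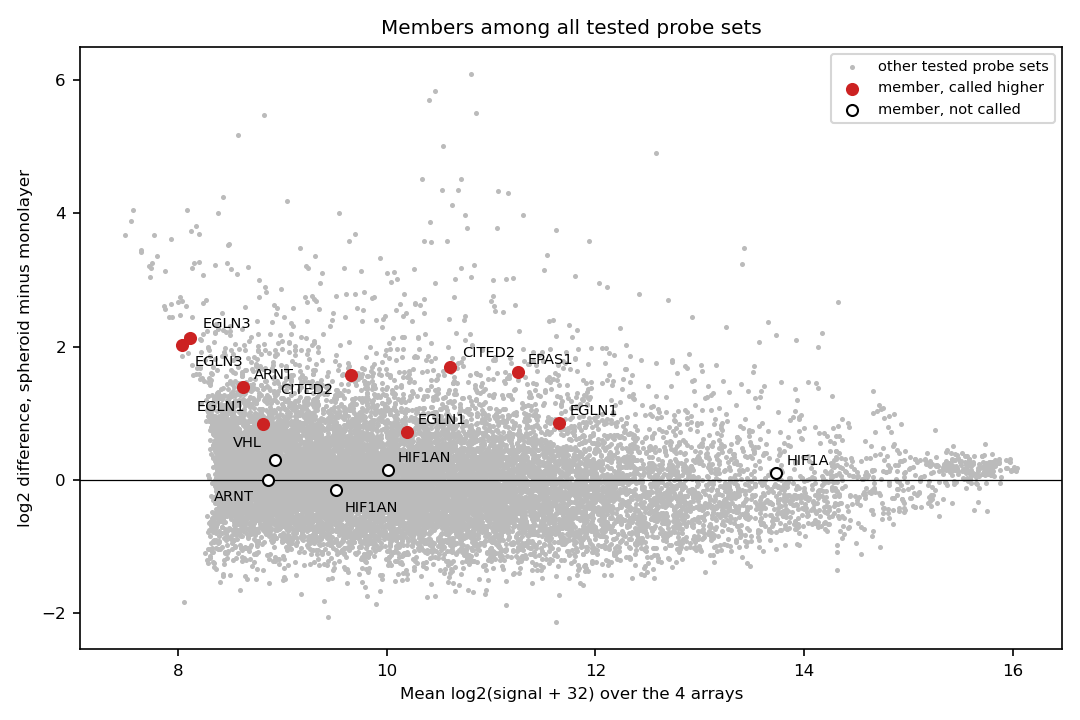
Log2 difference between spheroids and monolayers (y) against the mean log2(signal + 32) over the 4 arrays (x) for all 15911 tested probe sets (grey) and the 14 of the HIF subunits and oxygen sensors (red, called higher; open, not called). EGLN3 lies highest among the members, at 2.13 and 2.03, and HIF1A, at the right, close to the line at 0 (0.10).

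The start regions of these genes were examined for the core of the hypoxia response element, the DNA motif that HIF binds. RefSeq sequences (GRCh38.p14) of 250 bases before to 50 after the annotated start were found for 8 members, with 12 windows in all. Both strands were searched for ACGTG and GCGTG, and where CACGTG occurs the same bases match on both strands. At least 1 match was found in 7 of 12 windows, from 5 genes, and in 48.4% of all 35116 windows of this length, so a match is common. The windows are shown for the 4 genes called in every tested probe set, and for HIF1A as the alpha subunit that was not called, because these genes share a pathway and moved unequally. Capitals mark matches, and each sequence is written along the gene.
EGLN3 (chr14:33951025-33951324, minus strand): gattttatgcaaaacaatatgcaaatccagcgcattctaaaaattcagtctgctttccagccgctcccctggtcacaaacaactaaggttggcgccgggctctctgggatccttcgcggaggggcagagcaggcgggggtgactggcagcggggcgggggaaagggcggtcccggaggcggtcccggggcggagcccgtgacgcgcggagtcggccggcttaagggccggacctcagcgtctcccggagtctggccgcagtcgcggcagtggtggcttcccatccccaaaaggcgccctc
EGLN1 (chr1:231422238-231422537, minus strand): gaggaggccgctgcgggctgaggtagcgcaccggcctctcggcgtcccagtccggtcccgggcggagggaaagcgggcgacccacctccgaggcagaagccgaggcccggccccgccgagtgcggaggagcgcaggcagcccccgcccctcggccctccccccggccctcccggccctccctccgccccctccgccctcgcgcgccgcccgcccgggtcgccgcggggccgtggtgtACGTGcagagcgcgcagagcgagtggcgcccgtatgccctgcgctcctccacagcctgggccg
CITED2 (chr6:139374599-139374898, minus strand): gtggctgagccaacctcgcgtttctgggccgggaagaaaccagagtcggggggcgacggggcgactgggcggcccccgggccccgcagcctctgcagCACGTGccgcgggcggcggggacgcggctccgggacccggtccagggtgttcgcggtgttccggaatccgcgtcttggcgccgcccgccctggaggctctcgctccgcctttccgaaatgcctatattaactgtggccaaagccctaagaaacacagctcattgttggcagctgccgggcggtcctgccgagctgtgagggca
EPAS1 (chr2:46297157-46297456, plus strand): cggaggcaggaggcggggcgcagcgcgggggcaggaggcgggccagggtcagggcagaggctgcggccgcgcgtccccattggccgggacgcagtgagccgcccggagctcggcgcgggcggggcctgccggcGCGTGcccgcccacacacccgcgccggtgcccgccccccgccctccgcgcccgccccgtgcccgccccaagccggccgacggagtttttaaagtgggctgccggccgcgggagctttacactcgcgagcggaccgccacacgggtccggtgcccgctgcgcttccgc
HIF1A (chr14:61695263-61695562, plus strand): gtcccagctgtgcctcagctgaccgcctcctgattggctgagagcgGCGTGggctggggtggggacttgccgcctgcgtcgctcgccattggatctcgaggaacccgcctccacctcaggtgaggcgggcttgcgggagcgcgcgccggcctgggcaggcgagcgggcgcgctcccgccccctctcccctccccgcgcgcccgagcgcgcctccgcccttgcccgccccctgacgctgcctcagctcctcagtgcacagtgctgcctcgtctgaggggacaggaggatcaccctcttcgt

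EGLN1 had ACGTG at -13 to -9 from its start, and CITED2 had CACGTG, read as ACGTG at -153 to -149 on one strand and at -152 to -148 on the other. EPAS1 had GCGTG at -117 to -113 and HIF1A had GCGTG at -204 to -200. EGLN3, with the largest increase, had no match in this window, which says only that these letters are not there. Within these windows, HIF1A, which was not called, thus had a match and EGLN3, which was called, had none. A link between matches and calls was not tested. In the other windows, EGLN2 had CACGTG at 1 of 2 starts, and ARNT, HIF1AN and the second HIF1A start had no match. CITED2 had GCGTG at both other starts, whose windows overlap. The match at 26 to 30 from one start and that at -123 to -119 from the other are the same bases, counted for both windows.

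Among the alpha subunits, the transcript of HIF1A (HIF-1 alpha) did not pass the test and that of EPAS1 (HIF-2 alpha) rose. HIF1A had 1 probe set, 200989_at, with signals of 12188 and 14021 in monolayers and 12800 and 15431 in spheroids. The groups overlapped, and the log2 difference was 0.10 ± 0.14 (limma, adjusted p = 0.589), with a 95% interval of -0.20 to 0.41. The data therefore leave room for a change of up to that size, and the sign turned with Bacillus scaling (-0.64) and without spheroid replicate 2 (-0.030).

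EPAS1 probe set 200878_at had signals of 1312 and 1417 in monolayers and 4093 and 4378 in spheroids. Replicates lay close together and the groups far apart, with a log2 difference of 1.61 ± 0.16 (limma, adjusted p = 7.65e-05). This was a 3.06-fold difference on that scale, larger than in 97.3% of tested probe sets. It ran from 1.56 to 1.67 when each array was left out, and was 0.88 with Bacillus scaling (limma, adjusted p = 0.0780), that is 1.61 above the median of that setting. A second EPAS1 probe set, 200879_s_at, had 6.93 and 20.8 in monolayers, within the range of the unspiked controls, and 44.4 and 107.6 in spheroids. It had the same direction without overlap, but was too dim to be tested, and with no filter it was not called (1.19 ± 0.46, limma adjusted p = 0.205). The third, 241055_at, was between 3.69 and 7.13 on all arrays, which is in or below the control range.

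Because a scaling factor cancels between 2 probe sets of one array, the change of EPAS1 relative to HIF1A does not depend on it. The within-array log2 ratio of EPAS1 200878_at to HIF1A was higher in spheroids by 1.53 on average and by 1.40 to 1.66 over the 4 pairs of a spheroid and a monolayer array. Relative to ARNT 218221_at the ratio of EPAS1 was higher by 1.64 (1.31 to 1.96). These ratios compare changes, not levels, and were not tested.

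The beta subunits gave no single picture. ARNT, the shared partner of both alpha subunits, had 7 probe sets, of which 2 were tested. Probe set 218221_at had 420.5 and 445.0 in monolayers and 520.1 and 359.8 in spheroids, with a difference of 0.0016 ± 0.25 (limma, adjusted p = 0.997) and a 95% interval of -0.56 to 0.57. Its groups overlapped. Probe set 230619_at had 260.2 and 171.2 in monolayers and 672.8 and 549.4 in spheroids, a difference of 1.39 ± 0.27 (limma, adjusted p = 0.00360). It kept its call without any one array (1.13 to 1.66) but not with Bacillus scaling (0.71, limma adjusted p = 0.198).

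Within arrays and without the constant, the log2 ratio of ARNT 230619_at to ARNT 218221_at was higher in spheroids by 1.53. It ran from 1.06 to 1.99 over the 4 array pairs, so the ARNT probe sets did not change alike. Which exons each probe set covers was not analysed here. The other 5 ARNT probe sets were dim. Of these, 218222_x_at (174.2 and 188.2 in monolayers, 152.6 and 156.3 in spheroids) lay lower in spheroids without overlap, whereas 231016_s_at (185.3 and 78.8 against 220.5 and 146.2) and 210828_s_at (84.5 and 105.4 against 103.8 and 129.2) overlapped. None of these 5 was called with no filter, where their differences ran from -0.19 to 0.49. The remaining 2, 233714_at and 233724_at, did not exceed the control range on any array. ARNT2, a beta subunit best known from neural tissue, had 1 probe set, at 85.4 and 84.9 in monolayers and 106.2 and 36.0 in spheroids. Its groups overlapped, and with no filter the difference was -0.27 ± 0.51 (limma, adjusted p = 0.845).

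The prolyl hydroxylases differed from each other in the size of their change. EGLN3 (PHD3) had the largest increases among the members, although its signals were low in monolayers. Probe set 219232_s_at had 146.8 and 66.9 in monolayers and 630.5 and 478.7 in spheroids, a difference of 2.13 ± 0.34 (limma, adjusted p = 0.00114). Probe set 222847_s_at had 119.5 and 79.8 in monolayers and 601.3 and 412.8 in spheroids, a difference of 2.03 ± 0.31 (limma, adjusted p = 9.56e-04). On the linear scale, without the constant, the means differed 5.19-fold and 5.09-fold. Every spheroid signal was above every monolayer signal for both, even though the monolayers themselves differed by 0.85 and 0.44 on the log2 scale.

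With no filter both EGLN3 probe sets were called (limma, adjusted p = 0.0141 and 0.0122). Their differences ran from 1.70 to 2.56 and from 1.77 to 2.28 when each array was left out. With Bacillus scaling they were 1.48 ± 0.46 and 1.38 ± 0.46 (limma, adjusted p = 0.00901 and 0.0147). Both probe sets passed the filter through the spheroid arrays alone, and the fits without an array and with Bacillus scaling kept that filter. Of these calls, only those with no filter are therefore free of this selection. These 2 probe sets were also the closest of the members to the filter, with means of 330.7 and 303.4, while the nearest below it were HIF1AN 218525_s_at (279.7) and ARNT 218222_x_at (167.8).

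EGLN1 (PHD2), the main HIF prolyl hydroxylase of most cells, rose with a smaller difference. Its probe set with the highest mean signal, 223046_at, had 2244 and 2503 in monolayers and 4697 and 3928 in spheroids, a difference of 0.85 ± 0.16 (limma, adjusted p = 0.00287), that is 1.80-fold on the same scale. The groups did not overlap, and the call held without any one array (0.72 to 0.98). It was lost with Bacillus scaling, at 0.11 ± 0.40.

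Of the other EGLN1 probe sets, 221497_x_at had 864.6 and 899.5 against 1695 and 1279 (0.72 ± 0.20, limma adjusted p = 0.0196), and 224314_s_at had 335.5 and 276.6 against 648.7 and 503.2 (0.84 ± 0.25, limma adjusted p = 0.0256). The 3 probe sets therefore had increases of like size, each without overlap. The calls of the last 2 were less stable: both were lost without spheroid replicate 1 (0.52 and 0.67), with no filter (limma, adjusted p = 0.0606 and 0.0870) and with Bacillus scaling (-0.0058 and 0.15), and that of 224314_s_at also without monolayer replicate 2 (0.72) and with quantile normalization (0.68). The dim 223045_at had 7.93 and 19.2 in monolayers and 14.5 and 37.6 in spheroids, with overlap.

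Within arrays, the log2 ratio of EGLN3 219232_s_at to EGLN1 223046_at was higher in spheroids by 1.61 (0.90 to 2.33 over the 4 array pairs), and that of EGLN1 to HIF1A by 0.75 (0.47 to 1.04). Thus EGLN3 increased more than EGLN1 and EGLN1 more than HIF1A in every pair of arrays, by values that were not tested. EGLN2 (PHD1) had 1 usable probe set, 227147_s_at, at 4.75 and 4.28 in monolayers and 4.99 and 3.17 in spheroids. These signals are in or below the range of the unspiked controls, so no level can be given. The 2 other EGLN2 probe sets also carry the symbol of RAB4B-EGLN2, a readthrough transcript, and were not used.

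HIF1AN, the asparaginyl hydroxylase, and VHL, the substrate receptor of the ubiquitin ligase, did not pass the test. HIF1AN probe set 226648_at had 927.8 and 971.5 in monolayers and 1089 and 1020 in spheroids (0.15 ± 0.19, limma adjusted p = 0.583), with a 95% interval of -0.27 to 0.56. Probe set 59999_at had 701.4 and 776.3 against 818.0 and 537.6 (-0.15 ± 0.24, limma adjusted p = 0.676). The former lay above the monolayers without overlap and the latter overlapped. The third, 218525_s_at, had 374.9 and 308.8 in monolayers and 164.1 and 271.1 in spheroids; it lay lower in spheroids without overlap, was under the filter, and with no filter was not called (-0.61 ± 0.31, limma adjusted p = 0.348).

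VHL probe set 1559227_s_at had 470.2 and 352.9 in monolayers and 518.5 and 498.3 in spheroids. The groups did not overlap, but the difference of 0.30 ± 0.24 was not called (limma, adjusted p = 0.373), with a 95% interval of -0.24 to 0.83. The second VHL probe set, 203844_at, was at 23.1 to 53.4 with overlap. With Bacillus scaling the signs of HIF1AN 226648_at and VHL turned, to -0.58 and -0.40.

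CITED2, which competes with the alpha subunits for p300 and CBP, rose. Probe set 209357_at had 1002 and 695.5 in monolayers and 2622 and 2914 in spheroids, a difference of 1.69 ± 0.20 (limma, adjusted p = 2.71e-04), and 207980_s_at had 467.7 and 408.5 against 1436 and 1291, a difference of 1.57 ± 0.20 (limma, adjusted p = 3.96e-04). Both probe sets gave about a 3-fold increase (3.23-fold and 2.97-fold on the same scale) with no overlap between groups. The increases held without any one array (1.44 to 1.94 and 1.48 to 1.66) and were 0.96 and 0.86 with Bacillus scaling (limma, adjusted p = 0.0594 and 0.103). The third, 227287_at, was dim, with 17.3 and 7.90 in monolayers and 92.6 and 15.1 in spheroids. Its groups overlapped.

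Ordered by the difference of the probe set with the highest mean signal of each gene, the tested members ran from EGLN3 (2.13) through CITED2 (1.69), EPAS1 (1.61), EGLN1 (0.85), VHL (0.30), HIF1AN (0.15) and HIF1A (0.10) to ARNT (0.0016). The place of ARNT rests on the choice of probe set, since the other tested one, 230619_at, was at 1.39. The mean of both gave 0.70 (limma, adjusted p = 0.0404). Probe set 230619_at passed the filter through the spheroid arrays alone, and the dimmer ARNT probe sets are not in this mean. Nothing is therefore read from its call. Neighbours in this order differed by less than their summed standard errors, apart from EPAS1 and EGLN1 and from EGLN1 and VHL. Of the members that restrain HIF, EGLN3, EGLN1 and CITED2 rose, and HIF1AN and VHL were not called. The EGLN3 probe sets passed the filter through the spheroid arrays alone, but both were also called with no filter.

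**Figure D3:**
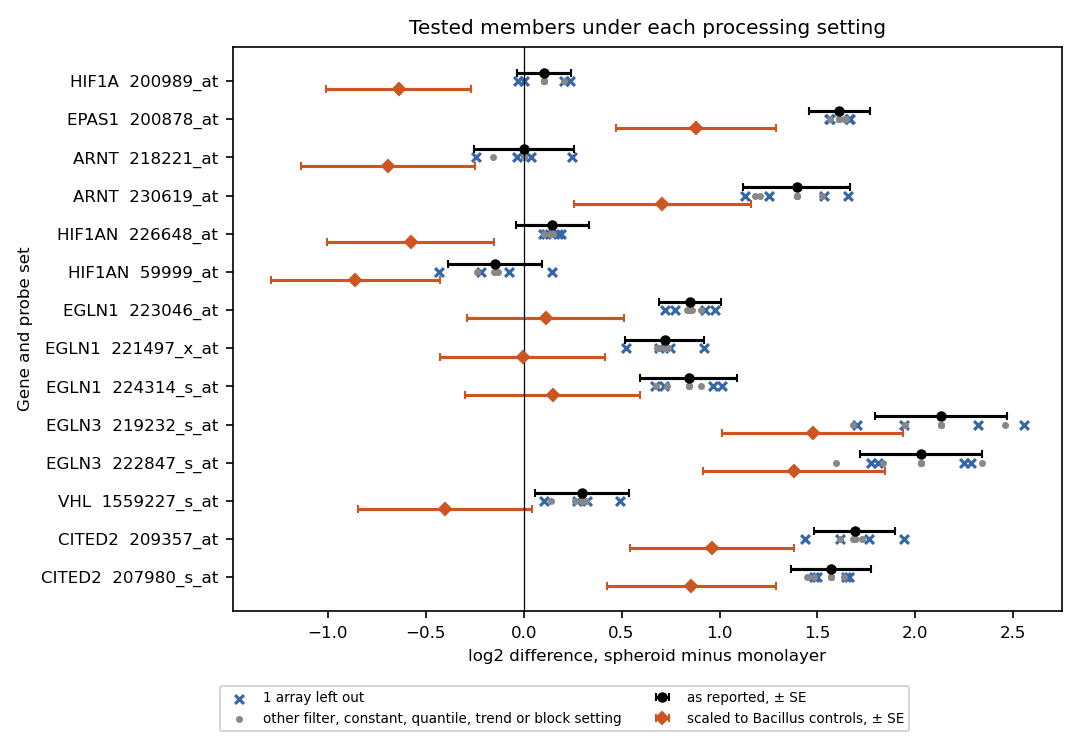
Log2 difference (x) of each of the 14 tested probe sets (y) as reported (black, ± SE), with each array left out (blue crosses), under other filter, constant, normalization, trend or block settings (grey) and after scaling to the Bacillus controls (orange, ± SE). Bacillus scaling moves every member to the left and widens the error. The EGLN3, CITED2, EPAS1, ARNT 230619_at, EGLN1 223046_at and EGLN1 224314_s_at points stay above 0 in all settings.

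The 5 genes whose profile over the 4 arrays was most like that of EGLN3 219232_s_at were found by Euclidean distance between log2 values, each centred on its own mean, among 8721 genes. They were ASS1 (distance 0.11), an enzyme of arginine synthesis, C1RL (0.17), a complement-related protease, ADSS1 (0.20), an enzyme of AMP synthesis, ORAI3 (0.21), a calcium channel subunit, and KDM4B (0.24), an oxygen-dependent histone demethylase that also stands in the list of HIF targets below. All 5 were dimmer on monolayer replicate 2 than on monolayer replicate 1, like EGLN3; ASS1, for example, had signals of 1113 and 574.3 in monolayers and 3855 and 3257 in spheroids. With 4 arrays this likeness is a description.

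Known HIF target genes were higher almost throughout. The list was chosen with earlier results of these data known, so its share is a description only. In a fit with 1 probe set per gene, 30 of 32 tested targets were higher and 0 lower, with a median difference of 2.20, against 19.0% higher and 20.6% lower (39.6% in either direction) among 8721 genes with a median of -0.03. Of these targets, SLC2A3 and ANGPTL4 passed the filter through the spheroid arrays alone (monolayer means of 47.4 and 104.1). With no filter 27 targets were higher and 0 lower (median 2.11), against 1336 higher and 1318 lower among 19775 genes. With Bacillus scaling 22 were higher and 0 lower (median 1.47). Without probe sets of the _x_at and _s_at kinds, which leaves fewer genes to test, 17 were higher. NDRG1, a stress-induced cytoplasmic protein, differed by 4.91 ± 0.14, ANKRD37 by 4.33 ± 0.43, the aldolase ALDOC by 3.78 ± 0.20 and the repressor BHLHE40 by 3.78 ± 0.18. The increase of EGLN3 was close to the median of these targets and that of EGLN1 below it. CA9 had no probe set with 1 symbol, and LOX and RORA were too dim to be tested.

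Targets often assigned to one alpha subunit were few. Of those linked to HIF-1, 5 of 5 tested were higher, against 19.0% of all tested genes. Their median was 0.995, and 0.25 with Bacillus scaling, where 2 were called. All 5 also stand among the HIF targets above, so this is not a further result. They included PDK1, which restrains pyruvate oxidation (2.64 ± 0.18), the mitophagy receptor BNIP3 (1.77 ± 0.15), and the glycolytic enzymes ALDOA (0.995 ± 0.10) and PGK1 (0.93 ± 0.11). The smallest difference was that of LDHA (0.36 ± 0.10). Of those linked to HIF-2, 2 were tested. The growth factor TGFA, with 1412 and 1443 in monolayers and 1996 and 2188 in spheroids, had a difference of 0.54 ± 0.17 (limma, adjusted p = 0.0213). This call did not hold when monolayer replicate 1 (0.53), monolayer replicate 2 (0.56) or spheroid replicate 2 (0.48) was left out, and Bacillus scaling turned the sign (-0.19). Cyclin D1 (CCND1), with 6028 and 6067 against 3777 and 3886, was lower by -0.65 ± 0.13 (limma, adjusted p = 0.00223). EPO and MMP14 did not pass the filter.

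**Figure D4:**
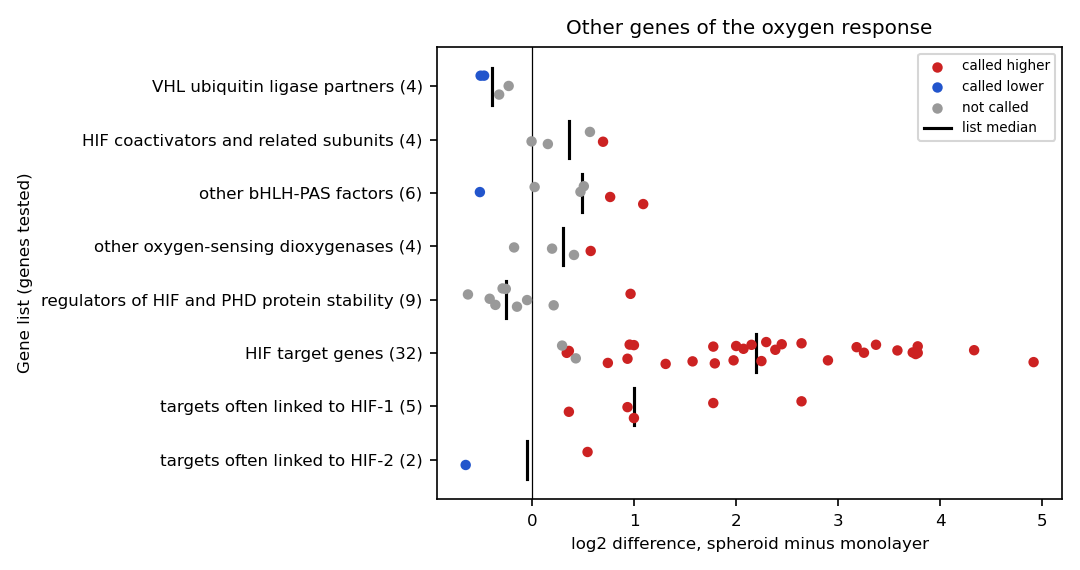
Log2 difference between spheroids and monolayers (x) of every tested gene in 8 lists of the oxygen response (y, genes tested in parentheses). Red and blue points were called higher and lower, grey ones were not called, and black bars are list medians. HIF target genes (median 2.20) lie far to the right, whereas the ligase partners of VHL (median -0.40) lie to the left of 0.

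Transcripts of proteins that work with the members were described in the same way, against 19.0% of all tested genes called higher and 20.6% lower. Of 4 partners of VHL in its ubiquitin ligase, 0 were higher and 2 lower (median -0.40), and ELOB (-0.23) and CUL2 (-0.33) were not called. The scaffold adaptor ELOC had 18401 and 16319 in monolayers and 13107 and 11863 in spheroids (-0.47 ± 0.12, limma adjusted p = 0.00769), and the RING subunit RBX1 had 8130 and 9093 against 5957 and 6120 (-0.51 ± 0.13, limma adjusted p = 0.00799). The call of ELOC was lost without spheroid replicate 2 (-0.40) and without the intensity trend (limma, adjusted p = 0.0594), and that of RBX1 without monolayer replicate 2 (-0.43). With Bacillus scaling all 4 were lower, as were 2971 of all 8721 genes.

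Of 4 tested coactivators, NCOA2 was higher (0.69 ± 0.19, limma adjusted p = 0.0105), but not without spheroid replicate 2 (0.53), with its sign turned by Bacillus scaling (-0.035). EP300 (0.15 ± 0.29) and CREBBP (-0.0085 ± 0.17), which encode p300 and CBP, were not called. HIF3A, CITED1 and CITED4 did not pass the filter. Of 6 tested factors of the same bHLH-PAS family, 2 were higher and 1 lower (median 0.49, -0.21 with Bacillus scaling and -0.0069 with no filter). AHRR, a repressor of the dioxin receptor, differed by 1.09 ± 0.20 (limma, adjusted p = 0.00129; 0.37 and not called with Bacillus scaling), and the clock factors NPAS2 and CLOCK by 0.76 ± 0.25 (limma, adjusted p = 0.0307) and -0.52 ± 0.16 (limma, adjusted p = 0.0224). CLOCK was no longer called when monolayer replicate 1 (-0.55), monolayer replicate 2 (-0.48) or spheroid replicate 1 (-0.40) was omitted, nor NPAS2 when monolayer replicate 1 (0.66), spheroid replicate 1 (0.63) or spheroid replicate 2 (0.89) was. As the mean of its probe sets CLOCK was at -0.20 (limma, adjusted p = 0.348). NPAS2 had 243 and 283.6 in monolayers and passed the filter through the spheroid arrays alone, so nothing is read from its call. It was also not called with quantile normalization (0.58, limma adjusted p = 0.0863), with no filter (limma, adjusted p = 0.114) or with Bacillus scaling (0.080).

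Of 4 other dioxygenases proposed as oxygen sensors, the transmembrane prolyl hydroxylase P4HTM was higher (0.57 ± 0.20, limma adjusted p = 0.0356). It was not called when monolayer replicate 2 (0.36) or spheroid replicate 1 (0.41) was omitted, with no filter (limma, adjusted p = 0.0973) or without the intensity trend (limma, adjusted p = 0.0656), and Bacillus scaling turned its sign (-0.16). ADO, KDM5A and KDM6A were not called (-0.18 to 0.41). Of 9 tested regulators of HIF and PHD protein stability, OS9, a lectin of the endoplasmic reticulum, was higher (0.96 ± 0.19, limma adjusted p = 0.00183). The other 8 were not called, among them the ligases SIAH1 (-0.15 ± 0.17) and SIAH2 (0.21 ± 0.26). Of these 8, SIAH2 alone lay above 0, and SENP1 lay lowest (-0.63 ± 0.27, limma adjusted p = 0.0788). The count of genes called lower, 0 here, was 3 with quantile normalization and 3 with the replicate number as a block. It was 4 with Bacillus scaling, where 0 were called higher (median -1.001, against -0.26).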

How the data were processed

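Total RNA of HCT116 monolayers and spheroids, 2 cultures each, was labelled with biotin and hybridized to Genome U133 Plus 2.0 arrays. The authors normalized the arrays with MAS5 and deposited a signal intensity on a linear scale for each probe set; its version and a genome build are not given in the sources used here. Detection calls were not used. Of 54613 probe sets other than 62 controls, 41091 had 1 gene symbol, 1801 several and 11721 none listed. Updating symbols through gene identifiers in RefSeq (41037 found) changed 0.

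Probe sets with a mean over 300 units, after the study's threshold, were analysed as log2(signal + 32) with limma 3.58.1 (R 4.3.3), lmFit and eBayes with an intensity trend, two-sided, with Benjamini-Hochberg adjustment over all 15911 tested. Residual degrees of freedom were 2, the prior added 8.35, and the standard error had a median of 0.21; the number of arrays limits the precision. Gene lists were described from a fit with the brightest probe set of each of 8721 genes. From each list, at most 4 called genes with the largest differences were named, or, for a list without calls, 2 by their p; other list genes named were chosen after their values were seen. The members and lists were chosen with earlier results of these data known. The limma fit was tested on simulated data. Groups follow the sample titles. Arrays correlated across probe sets at 0.980 (monolayer) and 0.976 (spheroid) within groups and at 0.889 to 0.906 between groups. As alternatives, the filter, the constant, the scaling, the intensity trend and the choice of probe set were changed, the replicate number was added as a block, and each array was left out.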

Additional observations from a re-analysis of the deposited data

How the results depend on the processing

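Of 168 recomputed differences of the 14 tested probe sets, 146 kept their sign and their side of the threshold, 12 kept the sign and lost the call, and 10 changed sign. Scaling to the Bacillus controls gave 2 member probe sets called higher in place of 9, 354 higher and 4957 lower probe sets in place of 2674 and 2643, and 195 higher and 2971 lower genes in place of 1656 and 1799. It turned the signs of HIF1A (-0.64), ARNT 218221_at (-0.69), HIF1AN 226648_at (-0.58), VHL (-0.40) and EGLN1 221497_x_at (-0.0058). The cause was not tested. ARNT 218221_at, near 0, also turned with quantile normalization (-0.15), and ran from -0.25 (without spheroid replicate 1) to 0.25 when each array was left out. HIF1A ran from -0.030 (without spheroid replicate 2) to 0.24 and HIF1AN 59999_at from -0.43 to 0.14 (without spheroid replicate 2). The mean of the 2 tested HIF1AN probe sets was -3.2e-04, which leaves out the dimmer 218525_s_at (-0.61 with no filter). As the mean of its 2 tested probe sets, ARNT was called higher (0.70, limma adjusted p = 0.0404). Of these, 230619_at passed the filter through the spheroid arrays alone, so nothing is read from this call. With no filter, 1578 probe sets were lower, and without _x_at and _s_at probe sets, with fewer genes tested, 1114 genes were. Without any one array, 1774 to 2488 probe sets were higher and 1617 to 2375 lower, 1208 to 1502 genes higher and 1362 to 1484 lower, and 7 to 9 member probe sets higher; the lone array of a group was then assumed to vary like the others. The smallest counts of probe sets were without spheroid replicate 1. The replicate numbers are not stated to pair the cultures. The differences between replicates 1 and 2 correlated at 0.36 between groups, over 15911 probe sets, and the fit with the replicate number as a block gave 3719 higher and 3772 lower probe sets and changed the call of no member. No MAS5 detection calls were at hand, so a dim signal is not shown to be absent.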
